A study of Homo sapiens with 18 samples.

Results

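The genes described here are 10 components of double-stranded RNA sensing: the sensors TLR3, RIGI, IFIH1, DHX58 and ZBP1, the adaptors MAVS, TICAM1 and TRAF3, and the kinases TBK1 and IKBKE. They were chosen by name, as the rows of the gene count matrix whose symbol equals one of these, and make up 10 of its 62754 genes. Earlier results of these data were known at the choice, so counts of genes called are a description. All 10 passed the filter on low counts, which left 15167 genes to test. RNA was sequenced from EA.hy926, a human umbilical vein endothelial line made by fusion with the A549 lung epithelial line. Mock cells received transfection reagent without siRNA, and siNT cells 10 nM of a non-targeting siRNA. The siELMO1 cells received 10 nM of a pool of siRNAs against ELMO1, a regulator of Rac activation and cell engulfment. Cells were lysed 48 h after transfection (0 h), or after a further 24 h in poly(I:C) at 1 μg/ml, a synthetic double-stranded RNA that TLR3 recognizes. The study describes overnight starvation in low serum before poly(I:C). No group was cultured for the further 24 h without poly(I:C), so poly(I:C) and the added time after starvation cannot be told apart. A response to poly(I:C) here means the difference between 24 h and 0 h. Each of the 6 groups had 3 libraries, all from the same hybrid line, so nothing here separates the line from endothelial cells in general.

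TLR3 senses double-stranded RNA in endosomes and signals through the adaptor TICAM1 (TRIF), whereas RIGI (RIG-I) and IFIH1 (MDA5) sense it in the cytosol and signal through MAVS on mitochondria. Both routes recruit TRAF3 and activate the kinases TBK1 and IKBKE (IKKε), which phosphorylate the transcription factors IRF3 and IRF7 and so induce interferons. Several of the sensors are themselves interferon-stimulated genes, which closes a feed-forward loop in infected cells.

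Libraries held 40.4 to 73.9 M estimated counts. Levels are given in CPM, a gene's count relative to the TMM-scaled total of its library, as mean ± SD of 3 libraries. Tests were edgeR quasi-likelihood tests on all 18 libraries, adjusted over all genes tested, and a gene was called at an adjusted p under 0.05. The level of ELMO1 before poly(I:C) was 2.94 ± 0.339 CPM in siNT cells and 0.340 ± 0.0687 CPM after knockdown, and at 24 h these values were 3.31 ± 0.307 and 0.267 ± 0.104 CPM. Its log2 fold change against siNT was −3.11 at 0 h and −3.64 at 24 h. One library, siELMO1 0 h replicate 1, differed more from the other replicates of its group (chi-square per degree of freedom of 70.5 and 78.8) than any other pair of replicates did from each other (10.1 to 29.2), and results that turn on it are given with and without it. Of 10 endothelial markers, 9 were above 1 CPM in every group and EMCN was at or near 0. Their summed level ran from 1038 to 1388 CPM in Mock and siNT libraries and from 1800 to 2176 CPM in siELMO1 libraries. Of 9 lung epithelial markers of the A549 parent, CDH1, SFTPC and NKX2-1 were at 0, and the sum, carried by KRT8 and KRT18, ran from 767 to 1088 CPM at 0 h and from 490.01 to 632 CPM at 24 h. Of 8 leukocyte markers, 2 were above 1 CPM (CD68 and LYZ), while CD3E was at 0 and PTPRC and CD14 had group means of at most 0.349 and 0.110 CPM. The summed leukocyte markers ran from 35.7 to 100.3 CPM at 0 h and from 140 to 285 CPM at 24 h. Of 8 fibroblast and smooth muscle markers, 2 were above 1 CPM (ACTA2 and TAGLN), DCN and LUM were at 0, and the sum ran from 6.25 to 33.0 CPM. The part of these markers in the results was not tested. In these bulk samples, fewer cells that express a gene and less of its RNA per cell cannot be told apart.

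In each transfection, every sensor rose from 0 h to 24 h of poly(I:C) by a larger fold than any adaptor or kinase. In Mock cells 8 of the 10 genes rose and MAVS fell, where 30.7% of all genes tested rose and 29.6% fell. In siNT cells 9 rose and none fell, against 28.6% and 25.2% of all genes, and in siELMO1 cells 9 rose and none fell, against 28.0% and 26.9%. The median log2 fold change of the 10 genes was 2.55 in Mock, 2.05 in siNT and 2.35 in siELMO1, against 0.01, 0.01 and 0.00 over all genes tested. ZBP1 enters them with a fitted value that depends on the prior count, and its fold against a limit of 3 counts at 0 h also lies above the median in each transfection. It passed the filter on low counts only through libraries after poly(I:C), so its place among the genes that rose is no independent support.

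TLR3, the endosomal receptor (ENSG00000164342.14, chromosome 4, 186068911 to 186088073, GRCh38), measured 16.1, 18.7 and 16.7 CPM in the Mock libraries at 0 h and 145, 136 and 162 CPM at 24 h. In siNT the libraries held 21.8, 26.4 and 25.9 CPM at 0 h and 115, 110.1 and 149 CPM at 24 h, and in siELMO1 they held 19.8, 18.9 and 21.0 CPM and then 151, 142 and 172 CPM. No 24 h library overlapped a 0 h library, and the ranges of the 3 transfections overlapped at 24 h. The rise was 8.61-fold in Mock (log2 fold change 3.11, SE 0.12, edgeR adjusted p = 1.8e-13). It was 5.05-fold in siNT (log2 fold change 2.34, edgeR adjusted p = 1.3e-11) and 7.80-fold in siELMO1 (log2 fold change 2.96, edgeR adjusted p = 4.5e-13).

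RIGI, a cytosolic helicase that binds short double-stranded RNA with 5′ triphosphates (ENSG00000107201.11, chromosome 9, 32455302 to 32526208), had by far the highest CPM of the sensors. The Mock libraries held 47.9, 45.1 and 43.8 CPM at 0 h and 1222, 1149 and 1345 CPM at 24 h. The siNT libraries went from 51.7, 48.8 and 50.1 CPM to 611, 522 and 782 CPM. In siELMO1 the values were 76.6, 81.0 and 81.3 CPM before and 1221, 1172 and 1484 CPM after poly(I:C). At 0 h every siELMO1 library was above every Mock and siNT library, and at 24 h every siNT library was below the Mock and siELMO1 libraries, which overlapped. The rise was 27.2-fold in Mock, 12.7-fold in siNT and 16.2-fold in siELMO1, with log2 fold changes of 4.76 (SE 0.13), 3.67 and 4.02 (edgeR adjusted p = 1.8e-15, 7.3e-14 and 1.5e-14). An annotated gene on the same strand (ENSG00000288684) overlaps RIGI and held 19 to 879 counts, at most 13.5% of the RIGI count of the same library, so reads could have been split between them.

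IFIH1, the cytosolic sensor of long double-stranded RNA (ENSG00000115267.10, chromosome 2, 162267074 to 162318684), started low and rose steeply. Mock libraries were at 7.83, 7.22 and 8.09 CPM before poly(I:C) and rose to 309, 315 and 352 CPM. In siNT the values were 8.98, 8.21 and 9.10 CPM, then 201, 183 and 250.2 CPM, and in siELMO1 they were 7.26, 7.07 and 5.70 CPM, then 296, 275 and 332 CPM. All siNT libraries at 24 h lay below all others of that time. The rise was 42.2-fold in Mock (log2 fold change 5.40, SE 0.12, edgeR adjusted p = 2.0e-16), 24.1-fold in siNT (log2 fold change 4.59) and 44.9-fold in siELMO1 (log2 fold change 5.49).

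DHX58 (LGP2), a RIG-I-like helicase without the signalling domain that tunes the other cytosolic sensors (ENSG00000108771.13, chromosome 17, 42101404 to 42112714), was barely expressed before poly(I:C). It held 43 to 129 counts per library at 0 h, a mean of 0.744 ± 0.0791 CPM in Mock, with 1.03 ± 0.0984 CPM for siNT and 1.44 ± 0.269 CPM for siELMO1. At 24 h the Mock libraries were at 80.3, 80.0 and 95.0 CPM, those of siNT at 28.1, 32.6 and 43.998 CPM and those of siELMO1 at 54.2, 50.6 and 66.3 CPM. The 3 transfections did not overlap at 24 h, with Mock highest and siNT lowest. DHX58 had the largest rise in Mock among the 9 genes measured at 0 h, 114-fold (log2 fold change 6.83, SE 0.19, edgeR adjusted p = 2.8e-15). The rises in siNT and siELMO1 were 33.7-fold and 38.5-fold.

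ZBP1, a sensor of Z-form nucleic acids that drives necroptosis (ENSG00000124256.15, chromosome 20, 57603846 to 57620576), was at 0 counts in all 9 libraries at 0 h. A limit of 3 counts was used for these libraries, or 0.0383 to 0.0752 CPM according to the depth of the library, for counting error only. It takes each estimated count as 1 read pair. The study reports fewer read pairs per sample than the estimated counts of the libraries, so the true limit may be higher. At 24 h the Mock libraries held 164, 157 and 246 counts (3.12, 2.60 and 4.21 CPM). The siNT libraries held 81, 78 and 189 counts (1.55, 1.39 and 3.30 CPM) and the siELMO1 libraries 174, 181 and 215 counts (2.64, 2.81 and 4.29 CPM). ZBP1 was thus detected only after poly(I:C), in each of the 9 libraries, and the transfections overlapped. Against the highest limit of a 0 h library of the same transfection, it was 72.2-fold higher in Mock, 42.2-fold higher in siNT and 43.1-fold higher in siELMO1. The true lower bounds may be smaller, for the same reason. ZBP1 passed the filter on low counts only through its 24 h libraries. The direction of a test of 24 h against 0 h was thus fixed beforehand, and its rise is given as a description.

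**Figure D1:**
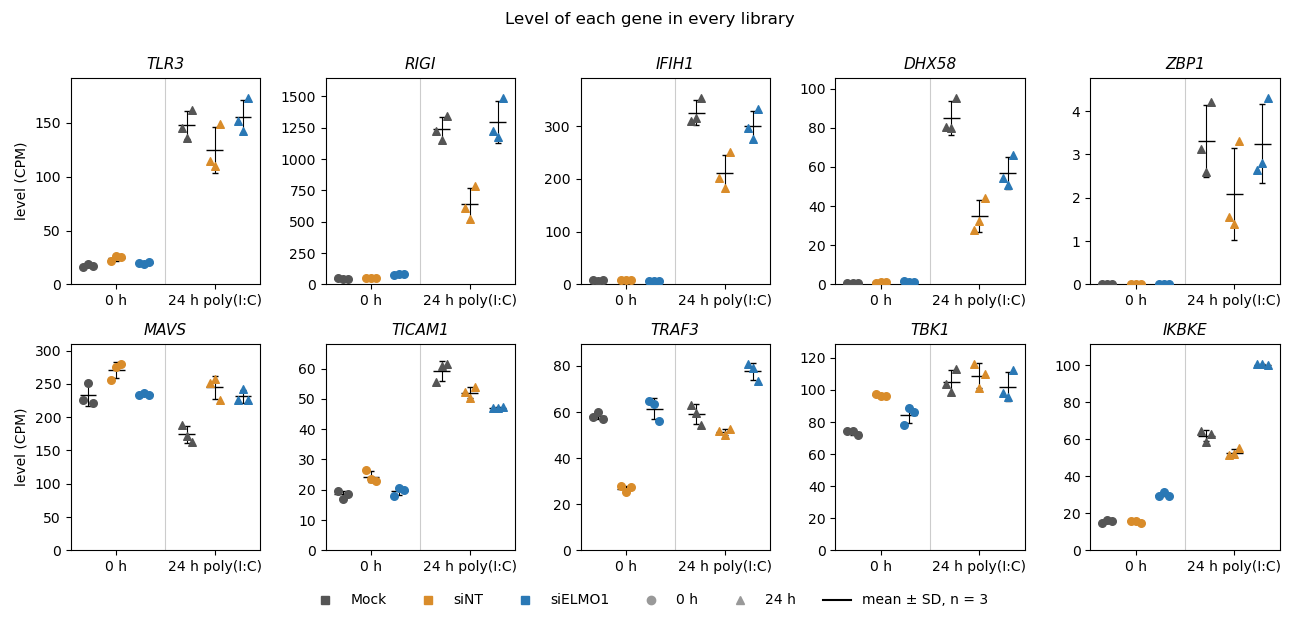
Level in CPM (y axis, linear from 0, one scale per gene) of each of the 10 genes in each of the 18 libraries, with 0 h on the left and 24 h of poly(I:C) on the right. Bars give mean ± SD of 3 libraries. RIGI reached 1149 to 1345 CPM in Mock at 24 h but 522 to 782 CPM in siNT, and TRAF3 was lowest in siNT at 0 h.

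The adaptors moved less than the sensors and not in one direction. MAVS, the mitochondrial adaptor of RIGI and IFIH1 (ENSG00000088888.18, chromosome 20, 3846799 to 3876123), went from 226, 251 and 221 CPM to 188, 172 and 163 CPM in Mock libraries. The siNT libraries held 257, 276 and 279.7 CPM before and 252, 258 and 225 CPM after poly(I:C). The siELMO1 libraries held 234, 237 and 234 CPM, then 226, 243 and 225 CPM. The 2 times separated in Mock and overlapped in siNT and siELMO1. MAVS fell by 0.42 on the log2 scale in Mock (SE 0.06, edgeR adjusted p = 2.0e-05), with log2 fold changes of −0.14 in siNT (edgeR adjusted p = 0.065) and −0.02 in siELMO1 (edgeR adjusted p = 0.80). The siNT value did pass the threshold in other fits, including DESeq2 (log2 fold change −0.15, adjusted p = 0.030) and edgeR without any one of 5 libraries, namely Mock 0 h replicate 2 or 3, siNT 0 h replicate 1, Mock 24 h replicate 1 (log2 fold change −0.15, adjusted p = 0.037) or siNT 24 h replicate 2.

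TICAM1, the adaptor of TLR3 (ENSG00000127666.11, chromosome 19, 4815932 to 4831712), was the adaptor that rose in every transfection. It went from 19.6, 17.1 and 18.6 CPM to 55.5, 61.0 and 61.5 CPM in Mock, and from 26.5, 23.6 and 23.0 CPM to 52.2, 50.3 and 53.9 CPM in siNT. In siELMO1 it went from 18.1, 20.5 and 20.0 CPM to 47.0, 46.9 and 47.3 CPM. At 24 h the siELMO1 libraries lay below all Mock and siNT libraries. The log2 fold changes were 1.69 in Mock, 1.10 in siNT and 1.27 in siELMO1 (edgeR adjusted p = 4.9e-13, 3.2e-10 and 3.8e-11).

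TRAF3, a ubiquitin ligase that links both adaptors to the kinases (ENSG00000131323.17, chromosome 14, 102777449 to 102911500), stood apart in the siNT cells before poly(I:C). The siNT libraries at 0 h were at 27.7, 25.3 and 27.3 CPM, where the Mock libraries held 57.9, 60.0 and 57.0 CPM and the siELMO1 libraries 64.7, 63.4 and 56.1 CPM. At 24 h Mock libraries had 63.1, 59.5 and 54.6 CPM, siNT libraries 51.7, 49.9 and 52.6 CPM and siELMO1 libraries 80.7, 78.9 and 73.6 CPM. The siNT libraries were below and the siELMO1 libraries above all Mock libraries at 24 h. The response to poly(I:C) was 0.02 on the log2 scale in Mock (edgeR adjusted p = 0.83), 0.94 in siNT (edgeR adjusted p = 1.5e-09) and 0.34 in siELMO1 (edgeR adjusted p = 1.9e-04). The Mock value changes sign with other scalings, to −0.10 with library totals and −0.05 with upper-quartile factors, and none of them passed the test.

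Of the kinases, IKBKE (ENSG00000263528.8, chromosome 1, 206470476 to 206496889), the inducible one, rose 3.96-fold in Mock, 3.38-fold in siNT and 3.33-fold in siELMO1. The libraries went from 14.9, 16.3 and 15.7 CPM to 64.2, 58.5 and 62.8 CPM in Mock, from 16.0, 15.9 and 14.9 CPM to 51.6, 51.8 and 55.1 CPM in siNT, and from 29.6, 31.2 and 29.5 CPM to 100.4, 101 and 100.0 CPM in siELMO1. The siELMO1 libraries were above all others at both times. The log2 fold changes were 1.98 in Mock, 1.76 in siNT and 1.74 in siELMO1 (edgeR adjusted p = 1.7e-15, 2.1e-14 and 1.0e-14). IKBKE-AS1 overlaps it on the other strand with 6 to 111 counts, at most 4.56% of the IKBKE count, and the sources used here do not state that counting used the strand.

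TBK1, the constitutive kinase (ENSG00000183735.11, chromosome 12, 64452090 to 64502114), changed least of the genes called in every transfection. Its Mock libraries went from 74.7, 74.7 and 71.9 CPM to 104, 98.5 and 113 CPM (log2 fold change 0.51, SE 0.07, edgeR adjusted p = 3.6e-06). In siNT it was at 97.5, 96.1 and 96.3 CPM and then at 116, 101 and 110.0 CPM, and in siELMO1 at 78.5, 88.5 and 86.4 CPM and then at 98.1, 95.9 and 112 CPM. The log2 fold change in siELMO1 was 0.27 (edgeR adjusted p = 0.0022). The rise in siNT, 0.17 on the log2 scale (edgeR adjusted p = 0.036), no longer passed the test when any one of 9 libraries was left out. These were all 6 Mock and siNT libraries of 0 h, Mock 24 h replicate 1, siNT 24 h replicate 3 and siNT 24 h replicate 1, the last with the highest edgeR adjusted p (0.16, log2 fold change 0.13).

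**Figure D2:**
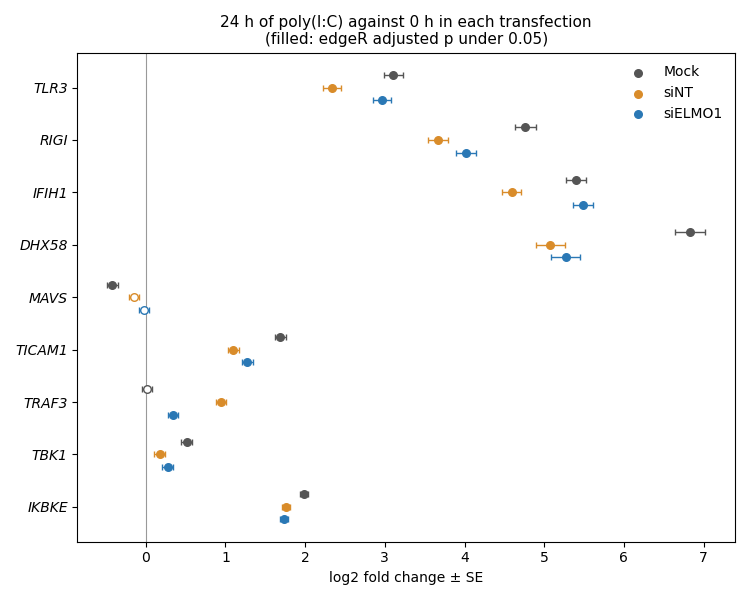
Log2 fold change of 24 h of poly(I:C) against 0 h (x axis, ± SE) for 9 genes in Mock, siNT and siELMO1. Filled points passed the edgeR test at an adjusted p under 0.05, and ZBP1 is left out because it was at 0 at 0 h. The values run from −0.42 (MAVS in Mock) to 6.83 (DHX58 in Mock).

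The windows around the transcription starts of 8 of the 10 genes were in the RefSeq promoter table for GRCh38.p14, from 250 bases before to 50 bases after the start (DHX58 and ZBP1 have no entry). The letters GAAANNGAA, a core of the interferon-stimulated response element, were searched on both strands. They were in the windows of TLR3 and IFIH1, 2 of 8, and in 8.29% of all 27305 windows. TLR3 is shown because its match begins 3 bases before the start and runs across it, and IFIH1 because it holds 4 matches. Of these, 3 begin 164, 158 and 152 bases before the start, each sharing bases only with its neighbour, and 1 begins 21 bases before it. RIGI and MAVS are shown beside them as the sensor with the highest level and as the adaptor that fell, both without a match. The sequences read 5′ to 3′ on the strand of the gene, with matches in capitals.
TLR3 (chr4:186068906-186069205, plus strand): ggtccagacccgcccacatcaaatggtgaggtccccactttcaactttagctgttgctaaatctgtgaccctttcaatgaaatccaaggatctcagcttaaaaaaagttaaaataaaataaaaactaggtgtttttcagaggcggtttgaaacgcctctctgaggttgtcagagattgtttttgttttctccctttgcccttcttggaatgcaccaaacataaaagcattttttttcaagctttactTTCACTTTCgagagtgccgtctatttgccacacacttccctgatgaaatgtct
IFIH1 (chr2:162318635-162318934, minus strand): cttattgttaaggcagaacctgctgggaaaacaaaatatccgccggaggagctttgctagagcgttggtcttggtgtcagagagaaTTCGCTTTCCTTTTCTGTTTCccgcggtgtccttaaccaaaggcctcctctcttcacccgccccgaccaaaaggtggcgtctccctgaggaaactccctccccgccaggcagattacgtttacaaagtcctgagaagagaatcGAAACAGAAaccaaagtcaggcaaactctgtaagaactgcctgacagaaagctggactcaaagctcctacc
RIGI (chr9:32526147-32526446, minus strand): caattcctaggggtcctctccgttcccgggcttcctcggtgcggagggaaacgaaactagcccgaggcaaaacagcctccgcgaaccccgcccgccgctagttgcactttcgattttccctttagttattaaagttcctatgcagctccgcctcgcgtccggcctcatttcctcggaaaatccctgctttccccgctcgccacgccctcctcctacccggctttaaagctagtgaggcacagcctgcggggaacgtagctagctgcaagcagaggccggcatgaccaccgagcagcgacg
MAVS (chr20:3846584-3846883, plus strand): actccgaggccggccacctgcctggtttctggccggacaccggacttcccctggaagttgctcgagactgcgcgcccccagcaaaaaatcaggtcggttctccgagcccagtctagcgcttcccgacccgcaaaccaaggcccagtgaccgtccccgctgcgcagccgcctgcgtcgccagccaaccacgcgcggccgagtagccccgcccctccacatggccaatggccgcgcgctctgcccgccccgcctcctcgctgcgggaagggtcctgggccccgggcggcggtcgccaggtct

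The absence of a match says only that these letters are not in the window. The letters TTCNNNGAA, a gamma-activated site, were in the TLR3 window alone, at 178 and 50 bases before the start, and in 7.88% of all windows. The letters GGNNNTTCC, a core of NF-κB sites, were in 4 of 8 windows (RIGI, IFIH1, TICAM1 and TRAF3) and in 20.1% of all windows. None of these 3 motifs was in the windows of MAVS, TBK1 and IKBKE. Matches of different motifs did not share bases.

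Before poly(I:C), knockdown of ELMO1 went with more IKBKE and RIGI transcript. Against siNT, 3 of the 10 genes were higher in siELMO1 and 5 were lower, where 31.3% of all genes tested were higher and 31.3% lower. Against Mock, 4 were higher and none was lower, where the shares of all genes were 27.9% and 22.4%. Between the controls, siNT was higher than Mock in 4 of the genes and lower in 1, against 27.6% and 24.0% of all genes. These 3 comparisons share their libraries, so the values are given side by side.

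IKBKE was 0.95 higher on the log2 scale in siELMO1 than in siNT (SE 0.05, edgeR adjusted p = 5.3e-11) and 0.95 higher than in Mock (edgeR adjusted p = 9.3e-11), with a difference of 0.00 between siNT and Mock. RIGI was higher by 0.67 than in siNT (edgeR adjusted p = 5.7e-05) and by 0.80 than in Mock (edgeR adjusted p = 1.2e-05), and the difference of 0.14 between siNT and Mock did not pass (edgeR adjusted p = 0.33). Without siELMO1 0 h replicate 1, the library that stood apart, IKBKE was 0.96 higher and RIGI 0.69 higher than in siNT, and both kept their calls. DHX58 was 0.98 higher in siELMO1 than in Mock (edgeR adjusted p = 0.0021), 0.78 without that library, and did not pass in limma-voom (adjusted p = 0.15). Against siNT it was 0.52 higher (SE 0.23, edgeR adjusted p = 0.058), 0.32 without that library (adjusted p = 0.33), and it passed without siNT 24 h replicate 1 or 3 or siELMO1 24 h replicate 3 (0.52 each). Its counts at 0 h were 43 to 129 per library.

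TRAF3 set siNT apart from both other transfections. It was 1.20 higher on the log2 scale in siELMO1 than in siNT (SE 0.06, edgeR adjusted p = 2.9e-11), and siNT was below Mock, with a log2 fold change of −1.12 (edgeR adjusted p = 2.3e-10), while siELMO1 and Mock differed by 0.07 (edgeR adjusted p = 0.35). TLR3, TICAM1, MAVS and TBK1 were higher in siNT than in Mock, by 0.53, 0.40, 0.22 and 0.39 (edgeR adjusted p = 8.0e-04, 8.1e-05, 0.0082 and 1.0e-04). For MAVS this call was lost without Mock 0 h replicate 1 or replicate 3 (0.16 and 0.15, adjusted p = 0.079 and 0.10).

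These 4 genes were lower in siELMO1 than in siNT, with log2 fold changes of −0.31 for TLR3, −0.32 for TICAM1, −0.20 for MAVS and −0.20 for TBK1 (edgeR adjusted p = 0.025, 5.1e-04, 0.0095 and 0.017). IFIH1 was also lower, by −0.39 (edgeR adjusted p = 0.011), a call that did not hold without siELMO1 0 h replicate 3 (−0.29, adjusted p = 0.066) or in limma-voom (adjusted p = 0.11). Without siELMO1 0 h replicate 1, TLR3 was at −0.31 (adjusted p = 0.056) and TBK1 at −0.14 (adjusted p = 0.081), so neither passed. The call of TLR3 was also lost without siNT 0 h replicate 2 (−0.26, adjusted p = 0.090), siNT 0 h replicate 3 (−0.27) or siELMO1 0 h replicate 2 (−0.27). Against Mock, TBK1 was 0.19 higher in siELMO1 (edgeR adjusted p = 0.023), which did not pass without any one of the 3 Mock 0 h libraries, siELMO1 0 h replicate 2 or 3, or Mock 24 h replicate 1 (edgeR adjusted p of up to 0.14, without Mock 0 h replicate 3, at 0.14).

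At 24 h the 3 cytosolic helicases stood lower under siNT than under Mock, and RIGI and IFIH1 under siELMO1 overlapped Mock. The study reports heavy cell death among siNT cells by this time, with much less in Mock and siELMO1. It proposes this as the likely reason for weaker inflammatory expression in siNT. It also treats siRNA transfection as a first stimulus of TLR3, which siNT and siELMO1 cells had received and Mock cells had not. The part of either in the values below was not tested. In siNT against Mock, 6 of the 10 genes were lower and 1 was higher, against 24.9% and 25.2% of all genes tested. In siELMO1 against siNT, 6 were higher and none was lower, against 26.0% and 26.5%. In siELMO1 against Mock, 3 were higher and 2 lower, against 21.6% and 22.0%. The median log2 difference of the 10 genes was −0.24 for siNT against Mock, 0.55 for siELMO1 against siNT and 0.02 for siELMO1 against Mock, with a median over all genes of 0.00, −0.01 and −0.01.

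Against Mock, DHX58 had a log2 fold change of −1.29 in siNT (SE 0.14, edgeR adjusted p = 5.5e-07), RIGI of −0.96 (SE 0.11, edgeR adjusted p = 1.6e-06) and IFIH1 of −0.62 (edgeR adjusted p = 5.2e-05). IKBKE, TRAF3 and TICAM1 were lower by less, at −0.23, −0.20 and −0.19 (edgeR adjusted p = 0.0013, 0.014 and 0.025). MAVS went the other way, 0.49 higher in siNT (edgeR adjusted p = 5.7e-06). Same-numbered libraries of these 2 groups deviated together, so the fit with the replicate number as a block also applies. The fit with the block called 9 genes in place of 7, adding TLR3 (log2 fold change −0.25, adjusted p = 0.021) and ZBP1 (−0.74, adjusted p = 0.030), which without the block were at −0.24 (edgeR adjusted p = 0.065) and −0.67 (edgeR adjusted p = 0.15). Without the block, TLR3 also passed without Mock 24 h replicate 2 (−0.30, edgeR adjusted p = 0.045) or siNT 24 h replicate 3 (−0.39, edgeR adjusted p = 0.0027), and ZBP1 without siNT 24 h replicate 3 (−1.17, edgeR adjusted p = 0.015). The calls of TRAF3 and TICAM1 were lost with single libraries left out, TRAF3 without Mock 24 h replicate 1 (−0.16, adjusted p = 0.063) or siNT 24 h replicate 2 (−0.18), and TICAM1 without Mock 24 h replicate 2 or 3 or siNT 24 h replicate 1 or 2 (the last at −0.16, adjusted p = 0.093).

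Against siNT at 24 h, siELMO1 was higher by 1.02 on the log2 scale for RIGI (SE 0.11, edgeR adjusted p = 7.0e-07), 0.93 for IKBKE (edgeR adjusted p = 1.9e-10) and 0.71 for DHX58 (edgeR adjusted p = 2.7e-04). TRAF3 was higher by 0.60 (edgeR adjusted p = 5.2e-07) and IFIH1 by 0.51 (edgeR adjusted p = 3.4e-04). TLR3 was higher by 0.32 (edgeR adjusted p = 0.018), although the libraries overlapped and the call was lost without siNT 24 h replicate 1 (0.26), siNT 24 h replicate 2 (0.23, adjusted p = 0.10) or siELMO1 24 h replicate 3 (0.24). ZBP1 was at 0.64 (SE 0.36, edgeR adjusted p = 0.16). It passed with 1.14 without siNT 24 h replicate 3 (adjusted p = 0.016) and with limma-voom (0.67, adjusted p = 0.041), so its call rests on the fit chosen. TICAM1 was at −0.15 (edgeR adjusted p = 0.071) with libraries that did not overlap, and was called lower in 5 other fits, including edgeR without siELMO1 0 h replicate 1, the library that stood apart (−0.15, adjusted p = 0.0498). TBK1 was at −0.10 (edgeR adjusted p = 0.25) and was called lower without siELMO1 24 h replicate 3 (−0.17, adjusted p = 0.046).

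Compared with Mock at 24 h, IKBKE was above in siELMO1 by 0.70 (edgeR adjusted p = 7.9e-09), MAVS by 0.41 (edgeR adjusted p = 4.8e-05) and TRAF3 by 0.40 (edgeR adjusted p = 6.0e-05). DHX58 and TICAM1 were below Mock, at −0.58 and −0.33 (edgeR adjusted p = 0.0018 and 4.9e-04). For RIGI, TLR3 and IFIH1 the log2 differences were 0.06, 0.07 and −0.11 with standard errors of 0.11, 0.11 and 0.10, and none passed the test. IKBKE was thus the one gene of the 10 called higher in siELMO1 than in both controls at both times, and each of these 4 calls was kept in every alternative fit that did not also require a fold change over 2.

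**Figure D3:**
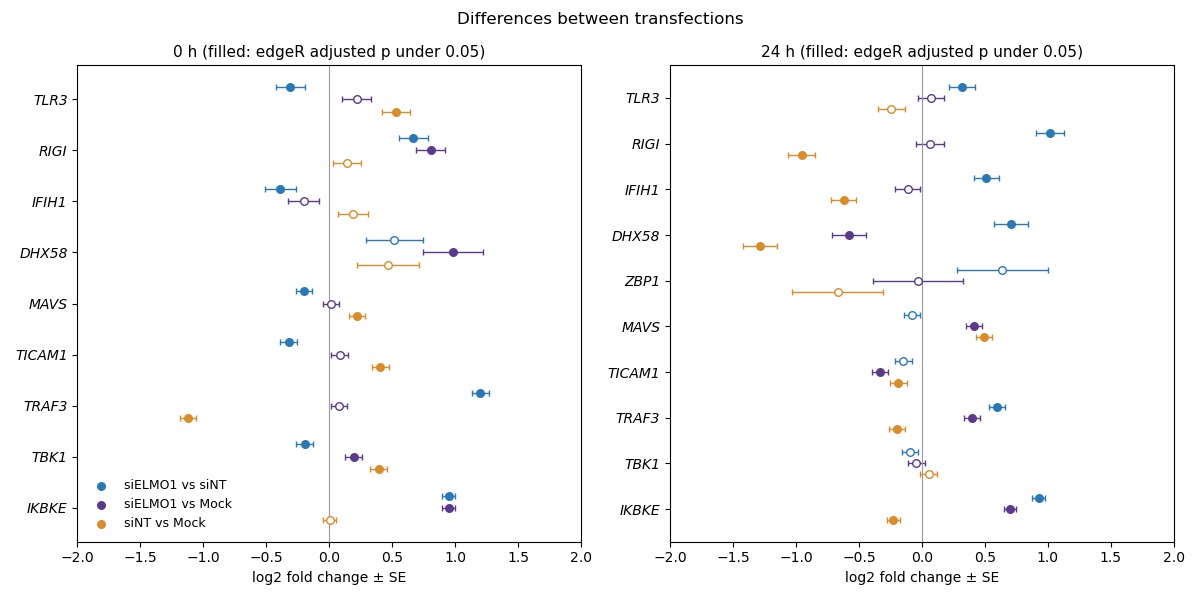
Log2 fold change between transfections (x axis, ± SE) at 0 h (left) and 24 h (right) for siELMO1 against siNT, siELMO1 against Mock and siNT against Mock. Filled points passed the edgeR test at an adjusted p under 0.05, and ZBP1 is drawn at 24 h alone. TRAF3 at 0 h reads 1.20, 0.07 and −1.12, and IKBKE lies between 0.70 and 0.95 in siELMO1 against either control.

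Whether the response to poly(I:C), as defined above, differed between the transfections was tested as an interaction, the difference of 2 log2 fold changes. In siNT against Mock, the interaction was positive for 2 genes (TRAF3 and MAVS) and negative for 7, against 15.0% and 16.0% of all genes tested. For MAVS the positive value means a smaller fall, with log2 fold changes of −0.14 in siNT and −0.42 in Mock. The negative values included DHX58 (−1.75, SE 0.28, edgeR adjusted p = 1.2e-04), RIGI (−1.09, edgeR adjusted p = 4.6e-05), IFIH1 (−0.81, edgeR adjusted p = 6.3e-04) and TLR3 (−0.77, edgeR adjusted p = 9.8e-04). TRAF3 had the larger response in siNT, by 0.92 (edgeR adjusted p = 7.0e-07), from its lower level at 0 h. In siELMO1 against Mock, 2 were positive (MAVS and TRAF3) and 4 negative, against 13.8% and 14.6%. MAVS again fell less than in Mock, with a log2 fold change of −0.02 in siELMO1. The negative values were led by DHX58 (−1.56, edgeR adjusted p = 3.5e-04) and RIGI (−0.74, edgeR adjusted p = 0.0019). For DHX58 the value was −1.36 without siELMO1 0 h replicate 1.

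In siELMO1 against siNT, 2 responses were larger and 1 smaller, against 16.7% and 17.8%. IFIH1 responded more in siELMO1 by 0.90 (SE 0.16, edgeR adjusted p = 2.5e-04) and TLR3 by 0.63 (edgeR adjusted p = 0.0044), and TRAF3 less, at −0.60 (edgeR adjusted p = 5.4e-05). RIGI, although 1.02 higher at 24 h, was already 0.67 higher at 0 h, and its interaction of 0.35 did not pass (SE 0.16, edgeR adjusted p = 0.095). It passed without siNT 24 h replicate 3 (0.52, edgeR adjusted p = 0.0034) and in edgeR with the replicate block (0.36, adjusted p = 0.042), which called 4 interactions in place of 3. Of the 4 groups in this interaction, siELMO1 at 0 h and siNT at 24 h had same-numbered libraries that deviated together. IKBKE showed the same pattern more plainly, with an interaction of −0.02 (SE 0.07, edgeR adjusted p = 0.87) beside differences of 0.95 and 0.93 at the 2 times. ZBP1 has no estimable interaction, as it was at 0 at 0 h in all transfections.

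At 24 h replicate 3 was the highest library of its group for 7 of the 10 genes in Mock, 8 in siNT and 7 in siELMO1, and at 0 h for 1, 2 and 2. The same was not counted over all genes tested, so these counts are not read as particular to these genes. The siNT spread at 24 h was wide for the sensors, with SDs of 132 on a mean of 638 CPM for RIGI and 1.06 on 2.08 CPM for ZBP1. What the replicate numbers share is not stated in the labels, and its part in the results was not tested.

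Levels of different genes can be compared only per length. Dividing each transcript's counts by its length and scaling to the same total in each library put TBK1 first among the 10 genes in Mock at 0 h, at 59.6 ± 2.64, followed by MAVS at 48.7 ± 3.62, RIGI at 24.6 ± 1.12, TRAF3 at 18.7 ± 0.868 and TICAM1 at 16.8 ± 1.02. Below them were IKBKE at 12.5 ± 0.869, TLR3 at 7.32 ± 0.863, IFIH1 at 5.76 ± 0.321 and DHX58 at 0.883 ± 0.0243, with ZBP1 at 0. In Mock at 0 h the 4 sensors other than RIGI thus had the lowest levels per length, whereas in siNT at 0 h TLR3, at 9.71, lay above TRAF3, at 8.06. No neighbours in the Mock order overlapped between libraries.

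After 24 h of poly(I:C) in Mock the order was led by RIGI at 607 ± 55.7 and IFIH1 at 216 ± 14.4 on this length-normalised scale, followed by DHX58 at 90.2 ± 11.5, TBK1 at 78.5 ± 7.58 and TLR3 at 58.8 ± 6.23. TICAM1 at 49.7 ± 2.34 overlapped TLR3 above it and IKBKE, at 47.4 ± 3.21, below it. DHX58 and TBK1 also overlapped, and they change places when the length of the leading transcript alone is used. MAVS at 33.5 ± 2.72, TRAF3 at 17.9 ± 1.56 and ZBP1 at 4.31 ± 1.82 came last. RIGI led in siNT and siELMO1 as well, at 317 ± 68.7 and 654 ± 92.2.

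**Figure D4:**
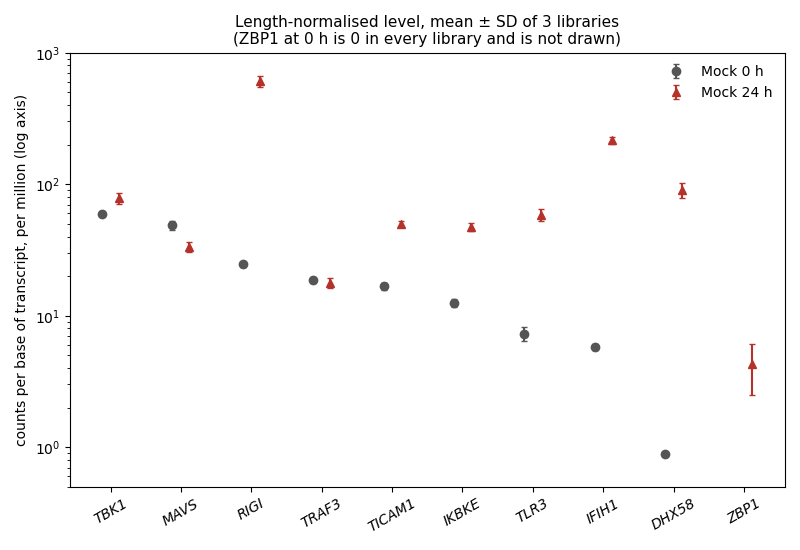
Length-normalised level (counts per base of transcript, scaled to the same total in each library, log axis) of the 10 genes in Mock at 0 h (circles) and 24 h (triangles), mean ± SD of 3 libraries, ordered by the level at 0 h. RIGI rose from 24.6 to 607 and DHX58 from 0.883 to 90.2, while MAVS went from 48.7 to 33.5.

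The transcript matrix gave the share of each gene's counts that its leading transcript took. A single transcript held 88.1% to 95.0% of IKBKE counts (IKBKE-203) and 83.7% to 95.8% of RIGI counts (RIGI-202) as group means, and TICAM1 has 1 annotated transcript. TRAF3-207, a protein-coding form of TRAF3, held 716, 641 and 662 counts in Mock at 0 h, 16.0 ± 2.46% of the gene, and 0 counts in all 3 siNT libraries at 0 h. It held 16.5 ± 10.0% in siELMO1 at 0 h and 10.8 ± 3.90% in siNT at 24 h. In Mock at 24 h it held 993, 1682 and 126 counts, or 26.9 ± 21.6%, so its share is unstable between replicates. TRAF3-211, another annotated form, held 18, 313 and 234 counts in siNT at 0 h and 0, 0 and 228 counts in Mock at 0 h. Whether reads were shared out differently between these forms was not tested. The leading form TRAF3-202 held 1658, 1130 and 1552 counts in siNT and 2401, 3009 and 3337 counts in Mock at 0 h, so it was lower in siNT too.

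IFIH1-208, a form annotated as a target of nonsense-mediated decay, held no counts in Mock and siNT at 0 h and 28.1 ± 6.06% of IFIH1 counts in Mock at 24 h. The estimate is unstable, since 1 siELMO1 library at 0 h gave this form 93.6% of 282 counts and the other 2 gave it none. For TBK1, with 71 annotated transcripts, the share of the leading form ranged from 5.96% to 40.8% between groups with SDs of up to 31.5 percentage points, and no reading of its isoforms is given. Estimated transcript counts share reads between overlapping forms, and no test was made on them.

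For each gene, the 2 genes with the most similar log2 level across the 18 libraries were taken. Among the sensors, the highest Pearson r was with HLA-B (0.997) and IFITM1 (0.996) for TLR3, with UBE2L6 (0.998) and APOL1 (0.998) for RIGI, with IFI35 (0.999) and PARP9 (0.999) for IFIH1, with STAT2 (0.997) and RELB (0.996) for DHX58, and with GBP1P1 (1.000) and LAP3 (0.998) for ZBP1. For the adaptors they were ATP8B1 (0.935) and NOS1AP (0.930) for MAVS, CTSS (0.992) and SP100 (0.992) for TICAM1, and MAP2K7 (0.971) and WIPI2 (0.968) for TRAF3. For the kinases they were SH3GLB1 (0.963) and SPART (0.944) for TBK1, and NECTIN2 (0.993) and NLGN2 (0.993) for IKBKE. The libraries fall into 2 times, so r describes mainly the step between them, and it has no test.

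Other genes of the pathway were read from lists chosen by function, with earlier results of these data known. Their counts beside the shares of all genes are thus a description. Of 12 other double-stranded RNA-binding effectors, 9 rose and 2 fell in Mock with poly(I:C), with a median log2 fold change of 2.28, where 30.7% of all genes tested rose and 29.6% fell. They include the OAS enzymes, which make the activator of RNase L, with OAS2 at 6.00 ± 0.808 CPM before and 1607 ± 60.2 CPM after. In siNT against Mock at 24 h, 7 of the 12 were lower and 5 higher, where 24.9% of all genes were lower and 25.2% higher. In siELMO1 against siNT 6 were higher and 2 lower, against 26.0% and 26.5% of all genes. OASL, which enhances RIG-I signalling, had 286 ± 84.2 CPM under siNT at 24 h, against 935 ± 172 CPM under siELMO1 and 1194 ± 103 CPM under Mock.

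Of 12 scaffolds and substrates of TBK1 and IKKε, 10 rose and none fell in Mock, with a median of 0.52 (the shares of all genes, here and for the lists that follow, were 30.7% higher and 29.6% lower), led by IRF7 (10.99 ± 0.556 to 351 ± 16.3 CPM). Of 11 TRIF and death-domain partners tested, 10 rose and 1 fell, with a median of 0.77 and CFLAR, an inhibitor of caspase-8, foremost (35.8 ± 0.854 to 232 ± 15.2 CPM). The 11 cofactors and E3 ligases of RIG-I and MDA5 that were tested split, with 5 higher, 3 lower and a median of 0.09. Of 10 negative regulators tested, 6 rose and 1 fell, and TNFAIP3 (A20) rose most (19.0 ± 1.65 to 533 ± 31.3 CPM). Of 6 other Toll-like receptors and trafficking factors tested, 3 rose and 2 fell, shares to be read against that background, with UNC93B1, which carries TLR3 to endosomes, at 8.84 ± 1.38 and then 22.8 ± 1.45 CPM. Of 5 cytosolic DNA sensors tested, 4 rose and none fell, with a median of 1.36.

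Downstream of the kinases, IFNB1 was at 0 in Mock and siNT at 0 h and reached, at 24 h, 23.0 ± 3.85 CPM in Mock but 1.68 ± 0.239 CPM under siNT and 7.64 ± 3.43 CPM under siELMO1. IFNL1 was at 0 in all 9 libraries at 0 h and at 7.87 ± 0.367, 0.635 ± 0.160 and 2.80 ± 0.859 CPM in the same order at 24 h. IFNB1 and IFNL1 were thus lowest in siNT and intermediate in siELMO1. IFNE, the other interferon tested, ran differently, with 1.72 ± 0.308 CPM in siNT, 1.07 ± 0.371 CPM in Mock and 0.664 ± 0.230 CPM in siELMO1 at 24 h. It was lower in siELMO1 than in siNT, with a log2 fold change of −1.38 (edgeR adjusted p = 0.0027). IFNB1 had a log2 fold change of −3.78 in siNT and −1.60 in siELMO1 against Mock, and of 2.18 in siELMO1 against siNT (edgeR adjusted p = 4.9e-07, 5.1e-04 and 5.1e-05). Of 9 benchmark interferon-stimulated genes tested, all 9 rose in each transfection. At 24 h siNT lay below Mock for all 9 (median −0.92), and siELMO1 above siNT for 8 (median 0.46), where 24.9% and 26.0% of all genes were called in these directions.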

How the data were processed

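The authors aligned stranded, paired-end reads with STAR, assembled them with StringTie against GENCODE v44 on GRCh38 and tested genes with limma (versions not given in the sources used here). The deposited gene and transcript tables hold estimated counts per library, whole numbers derived from coverage. The read length used for that conversion and the use of strand are not given in the sources used here. The 10 genes and all lists were chosen with earlier results of these data known.

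The filter kept genes that summed to 100 counts or more and reached 1 CPM in some library (15167 of 62754). Quasi-likelihood tests were run in edgeR 4.0.16 (R 4.3.3) with TMM factors (0.958 to 1.06) and 1 model of 6 groups over 18 libraries of 40.4 to 73.9 M counts. P-values were adjusted by Benjamini-Hochberg over all genes tested in each of 12 comparisons. They rest on 1 estimate of the spread between libraries within groups, shared by all 6 groups, and not on the spread of the compared groups alone. The study describes the 3 libraries of a group as biological replicates, and the biological coefficient of variation was 12.2%. Genes named were the 10 members, ELMO1, up to 4 genes of each other list with the largest change in Mock, and the 2 genes with the highest Pearson r for each member (mean of at least 1 CPM, prior count 0.5). Alternatives used DESeq2 1.42.0, limma-voom 3.58.1, other scalings and filters, a replicate block, a fold threshold of 2 and each library left out. The scripts that fit the models were tested on simulated data.

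Samples of the same replicate number were checked for shared deviations from their group means. In Mock and siNT at 24 h the correlations were 0.204 to 0.375, all over 0.1, which does not establish pairs. The values and calls of that comparison come from the main fit, which has no block. Where calls differed, those of the blocked fit are stated beside them. Of the other pairs of groups, siELMO1 at 0 h and siNT at 24 h alone had all 3 correlations over 0.1 (0.134 to 0.275), and these are not compared directly but both enter the interaction of siELMO1 against siNT. Libraries were not duplicates of each other, as chi-square per degree of freedom between replicates was at least 10.1. Promoter windows came from RefSeq, GRCh38.p14.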

Additional observations from a re-analysis of the deposited data

Results flagged for a closer look

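The results below were singled out because the response to poly(I:C) differed between transfections by a test of the difference itself, the interaction term of the edgeR fit, adjusted over all genes tested. In siNT against Mock, the log2 interaction was −1.75 for DHX58, −1.09 for RIGI, −0.81 for IFIH1, −0.77 for TLR3, −0.59 for TICAM1, −0.34 for TBK1 and −0.23 for IKBKE, and 0.92 for TRAF3 and 0.27 for MAVS. TLR3, RIGI, IFIH1 and DHX58 thus rose less in siNT than in Mock (ZBP1, at 0 at 0 h, could not be tested), and TRAF3 rose in siNT from a low level at 0 h.

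In siELMO1 against Mock it was −1.56 for DHX58, −0.74 for RIGI, −0.42 for TICAM1 and −0.25 for IKBKE, and 0.40 for MAVS and 0.32 for TRAF3. In siELMO1 against siNT it was 0.90 for IFIH1, 0.63 for TLR3 and −0.60 for TRAF3. These comparisons share their libraries.

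Some of these calls rest on single libraries. The interaction of IKBKE in siNT against Mock did not pass without any one of 8 libraries (edgeR adjusted p of up to 0.12, without Mock 0 h replicate 1, at −0.17), and in siELMO1 against Mock without any one of 3 (up to 0.086, without Mock 0 h replicate 1, at −0.19). That of MAVS in siNT against Mock did not pass without any one of 6 (up to 0.075, without siNT 24 h replicate 2, at 0.24). TBK1 in siELMO1 against Mock, not called, passed without siELMO1 0 h replicate 1 (−0.29, edgeR adjusted p = 0.023), Mock 24 h replicate 2 (−0.28) or siELMO1 24 h replicate 3 (−0.31). No group had over 3 libraries, so no library was tested as an outlier.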

How the results depend on the processing

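Across 29 settings, none of 3088 recomputed log2 fold changes of the genes, leaving aside the added fold requirement, changed direction while called; 2979 kept their side of the threshold, 66 lost a call and 43 gained one. Of 114 values, 92 kept their side in every setting other than the fold requirement. With a fold change over 2 also required, the genes called fell to 1 (TRAF3) in siELMO1 against siNT at 0 h, 0 in siELMO1 against Mock at 0 h, 1 (TRAF3) in siNT against Mock at 0 h, 1 (RIGI) in siELMO1 against siNT at 24 h, 0 in siELMO1 against Mock at 24 h, 1 (DHX58) in siNT against Mock at 24 h, and 0, 1 and 2 in the interactions of siELMO1 against siNT, siELMO1 against Mock and siNT against Mock. With each library left out, the calls ranged from 6 to 9 in siELMO1 against siNT at 0 h, from 3 to 4 in siELMO1 against Mock at 0 h, from 5 to 7 in siELMO1 against siNT at 24 h and from 5 to 9 in siNT against Mock at 24 h. The replicate block called 9, 10 and 9 genes for the responses in Mock, siNT and siELMO1, 9, 4 and 5 for the differences at 0 h (siELMO1 against siNT, siELMO1 against Mock, siNT against Mock), 7, 5 and 9 at 24 h and 4, 6 and 9 for the interactions. Same-numbered libraries deviated together in siNT against Mock at 24 h and between siELMO1 at 0 h and siNT at 24 h, which does not establish pairs, and other groups share only a number. The share of all genes called was taken from the main fit alone. Counts of genes called under the other settings thus have no such share beside them. Library totals shift Mock at 24 h against 0 h by −0.12 on the log2 scale. Per-length levels moved by over their SD in 12 of 60 cases with the length of the leading transcript. DHX58 at 0 h and ZBP1 at 24 h rest on at most 129 and 246 counts per library, which limits their precision.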
